A study of Homo sapiens with 16 samples.

Results

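The genes described here are 36 glycolysis and hypoxia genes, 24 of glucose breakdown and 12 of the cell's response to low oxygen, in OVCAR3 cells given 1,25-dihydroxyvitamin D3 (1,25(OH)2D3). They were taken from a list of symbols by a rule that uses no measured value, though the list was drawn up with earlier results of these data known. Of the 36, 34 had a probe set assigned to them alone on the Affymetrix U133A array, among 11963 such genes, and SLC16A3 and CA9 were not analysed here. OVCAR3 is an established human ovarian carcinoma line, and 1,25(OH)2D3 is the hormonal form of vitamin D, which acts through a nuclear receptor. There were 12 U133A arrays in 4 groups of 3 biological replicates: ethanol vehicle, and 8, 24 and 72 h of 1,25(OH)2D3 at a stated dose of 0.1 pM. Hormone was added at staggered times so that every culture was collected together after the same time in ethanol, in a medium rich in glucose and with insulin. A further 4 arrays, of the older U95 type, carried 1 sample per time. Their titles do not say whether these came from cultures other than those on U133A.

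Glycolysis splits glucose into pyruvate in the cytosol, and lactate dehydrogenase turns pyruvate into lactate. The upper enzymes, from hexokinase to aldolase, spend ATP, and the lower enzymes, from triosephosphate isomerase to pyruvate kinase, earn it back. When oxygen is short, prolyl hydroxylases of the EGLN family stop marking the factor HIF1A for destruction. HIF1A with its partner then binds DNA at a short core, ACGTG or GCGTG, and raises glycolytic enzymes, vascular growth factor, mitophagy receptors and collagen prolyl hydroxylases. No culture in the series is labelled as kept at low oxygen.

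The values are MAS5 signals, in arbitrary units on a linear scale, and signals of different probe sets cannot be set against each other. A gene was tested where its mean signal over the 12 arrays exceeded 175, and 32 of the 34 genes were, 21 of glycolysis and 11 of hypoxia. The mean signals of the glucose transporter SLC2A3 (21.5) and of PFKFB4 (63.3), a kinase and phosphatase that sets the level of fructose 2,6-bisphosphate, lay below that value. FBP1 (184) and PDK1 (185) lay just above it. Log2 changes are differences of group means of log2(signal + 15.8) and folds are on the same scale, so both understate changes of dim genes. Adjusted p values are from limma with Benjamini-Hochberg adjustment over all 7178 genes tested, and a gene rose or fell where that value was under 0.05. In bulk RNA, a change in the share of cells that express a gene and a change in RNA per cell cannot be told apart.

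The cells showed the labelled tissue and answered the hormone. All 10 markers of ovarian carcinoma epithelium were above the filter, as were 3 of 7 fibroblast markers, 0 of 4 leukocyte markers and 0 of 5 endothelial markers. The summed signal of the 10 epithelial markers was 45219 to 51381 in vehicle and 47242 to 49619 at 72 h, and that of the 7 fibroblast markers 1244 to 1377 and 1173 to 1352. Single epithelial markers did change, 3 of 10 higher (WT1, CDH1 and KRT7) and 1 lower (KRT18) at 72 h, and 2 higher and 2 lower at 24 h, so the sum does not show that each was steady. CYP24A1, which inactivates the hormone, had a log2 change of 5.65, 5.86 and 5.89 at 8, 24 and 72 h, and the growth arrest gene GADD45A one of 1.49, 1.91 and 2.02, all past the test. Median signals of the arrays lay between 168 and 196, and the log2 ratio of the 3' to the 5' GAPDH control probe set between -0.18 and 0.04.

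Hypoxia genes had larger median changes than glycolysis genes at 24 and 72 h, a difference that was not tested, and few of either passed the test singly. At 8 h 0 of the 32 genes rose and 0 fell by limma, where 0.752% of all genes rose and 0.0836% fell. The unadjusted limma p was under 0.05 for 2 genes of glycolysis and 2 of hypoxia. The share of all genes at that level is not given here, so this count shows no excess. At 24 h 1 of 21 glycolysis genes (PFKP) and 3 of 11 hypoxia genes (VEGFA, NDRG1 and DDIT4) rose and 0 fell, against 2.54% of all genes that rose and 1.66% that fell. At 72 h 2 of 21 glycolysis genes rose (PFKP and TPI1), 1 fell (PFKFB3), and 2 of 11 hypoxia genes rose (VEGFA and DDIT4), where 3.9% of all genes rose and 3% fell. By the F test over all times, 1 of 21 glycolysis genes (PFKP) and 2 of 11 hypoxia genes (VEGFA and DDIT4) changed, against 5.41% of all genes.

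Medians of the log2 changes gave the same order. For the 21 glycolysis genes the median was 0.04, 0.06 and 0.23 at 8, 24 and 72 h, and for the 11 hypoxia genes 0.09, 0.38 and 0.41, where over all genes tested it was -0.00, -0.02 and -0.01. At 72 h, 16 of 21 glycolysis genes and 10 of 11 hypoxia genes had a positive change, as did 3422 of all 7178 genes. The treated and vehicle arrays did not overlap, with treated higher, for 1 glycolysis and 3 hypoxia genes at 8 h (6.51% of all genes) and for 2 and 4 at 24 h (9.43%), and with treated lower for 2 and 0 at 8 h (6.94%) and 1 and 1 at 24 h (11.2%). The 3 arrays at 72 h lay above all 3 vehicle arrays for 6 of 21 glycolysis and 7 of 11 hypoxia genes, where 11.8% of all genes did so, and below them for 1 glycolysis gene (PFKFB3), where 12.7% of all genes did. The median SD within groups on the log2 scale was 0.15 for the glycolysis genes, 0.21 for the hypoxia genes and 0.17 for all genes tested, and it was widest among the hypoxia genes for BNIP3 (0.53), EGLN3 (0.41) and BNIP3L (0.33).

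**Figure D1:**
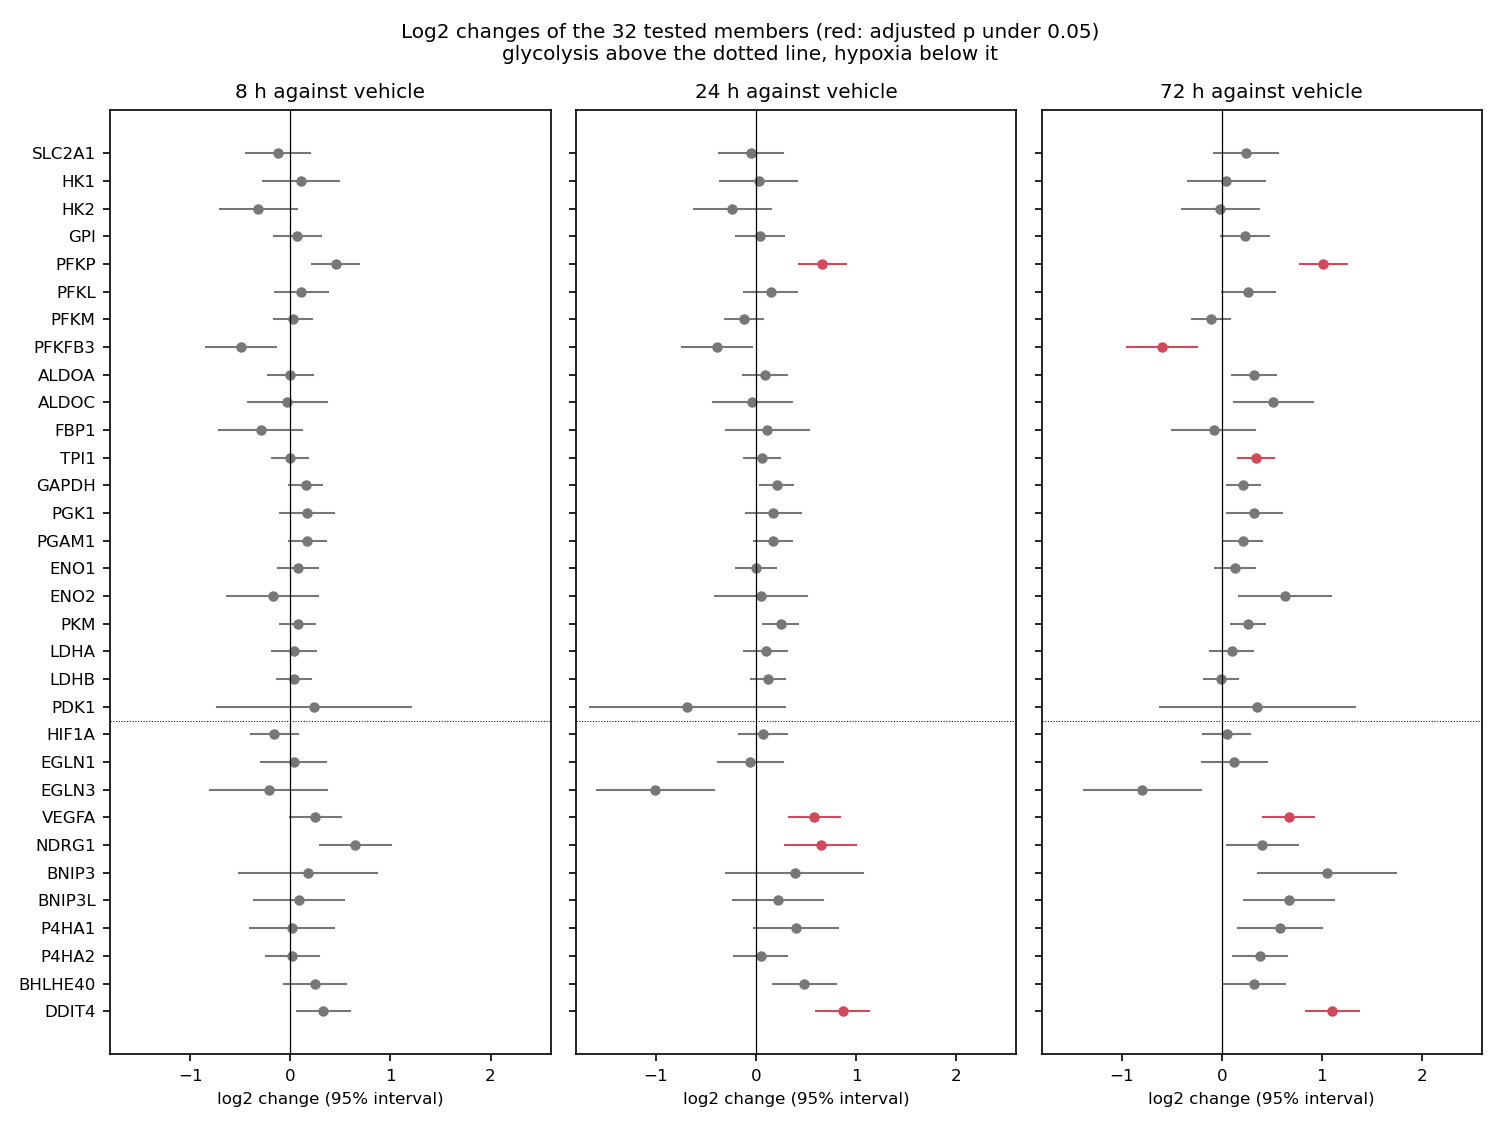
Log2 change against vehicle of each of the 32 tested genes at 8, 24 and 72 h, with 95% intervals of the limma fit (3 arrays a group); red marks an adjusted p under 0.05. DDIT4, BNIP3 and PFKP lie farthest to the right at 72 h (1.10, 1.05 and 1.01), and PFKFB3 (-0.59) and EGLN3 (-0.79) to the left.

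All 8 hypoxia targets tested had positive changes, so the letters before the start site are shown for 5 genes of different response. They are the 250 bases before a RefSeq start on GRCh38.p14, read 5′ to 3′ on the gene's strand, with every hypoxia response core, ACGTG or GCGTG on either strand, in capitals. DDIT4 (chr10:72273674-72273923, plus strand) and BNIP3 (chr10:131981924-131982173, minus strand) are targets with log2 changes of 1.10 and 1.05 at 72 h. P4HA1 (chr10:73096867-73097116, minus strand) had 0.59, EGLN3 (chr14:33951075-33951324, minus strand), a hydroxylase gene, had -0.79, and LDHA (chr11:18394313-18394562, plus strand), a textbook HIF target, had 0.10.
DDIT4: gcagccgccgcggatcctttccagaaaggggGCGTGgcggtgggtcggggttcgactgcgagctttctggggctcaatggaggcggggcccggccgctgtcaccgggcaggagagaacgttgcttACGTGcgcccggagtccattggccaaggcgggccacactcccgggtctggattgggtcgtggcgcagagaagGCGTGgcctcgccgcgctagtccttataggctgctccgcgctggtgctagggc
BNIP3: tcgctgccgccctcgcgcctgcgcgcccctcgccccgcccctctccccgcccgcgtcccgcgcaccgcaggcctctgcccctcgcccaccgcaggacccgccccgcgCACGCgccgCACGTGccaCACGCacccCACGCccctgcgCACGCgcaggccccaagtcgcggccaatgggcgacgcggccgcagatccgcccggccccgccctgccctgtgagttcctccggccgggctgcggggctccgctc
P4HA1: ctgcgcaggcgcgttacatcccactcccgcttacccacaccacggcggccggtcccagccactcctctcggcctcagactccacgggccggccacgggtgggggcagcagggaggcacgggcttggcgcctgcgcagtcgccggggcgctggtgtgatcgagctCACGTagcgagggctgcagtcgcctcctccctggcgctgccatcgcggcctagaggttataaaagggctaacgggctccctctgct
EGLN3: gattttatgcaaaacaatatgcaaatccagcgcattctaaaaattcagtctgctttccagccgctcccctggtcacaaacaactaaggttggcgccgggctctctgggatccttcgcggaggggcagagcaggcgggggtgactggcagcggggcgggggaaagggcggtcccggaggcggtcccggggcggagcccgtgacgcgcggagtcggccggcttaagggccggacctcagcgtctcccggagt
LDHA: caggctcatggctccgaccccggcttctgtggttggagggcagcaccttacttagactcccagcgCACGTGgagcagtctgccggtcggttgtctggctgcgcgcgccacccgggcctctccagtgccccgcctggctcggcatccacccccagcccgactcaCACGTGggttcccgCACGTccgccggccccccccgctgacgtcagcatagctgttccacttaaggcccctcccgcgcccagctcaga
DDIT4 holds 3 cores in this window, BNIP3 6, P4HA1 1, EGLN3 0 and LDHA 5. LDHA has a second start, whose window (chr11:18396101-18396350, plus strand, not shown) holds 1 core. The count for LDHA thus depends on the start chosen, and whether core number follows the size of the change was not tested. The E-box CACGTG in BNIP3 and LDHA reads as a core on each strand and counts as 2.

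Across the set, a core stood in 34 of 59 windows (57.63%), in 7 of 10 of the hypoxia genes and 27 of 49 of the glycolysis genes. The share was 55.33% in the 9020 windows of the genes tested here and 43.21% in all 35114 windows. The form ACGTG was found in 38.98% of the windows of the set and 22.42% of those of the genes tested, and GCGTG in 30.51% and 43.5%. By gene, 26 of the 32 with an entry had a core before at least 1 start, against 66.51% of 6005 tested genes, a count that grows with the number of starts a gene has. SLC2A3, VEGFA, NDRG1 and BNIP3L had no entry. A vitamin D response element, searched as 2 half-sites AGGTCA or GGTTCA in the same direction spaced by 3 bases, was in 0 of 59 windows and in 5 of all 35114. A match describes these letters and is not a bound site, and a window without one says nothing about the factor.

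Among the regulators of the pathway, HIF1A, EGLN1 and EGLN3, 0 of 3 passed the test at any time. HIF1A, the oxygen-labile subunit of the factor, is controlled mainly at the level of its protein, which the arrays do not measure. Its signals were 4715, 4896 and 5000 in vehicle and 4761, 5248 and 5111 at 72 h, with log2 changes of -0.16, 0.07 and 0.05 at 8, 24 and 72 h. EGLN1, the main oxygen-sensing hydroxylase, gave 0.03, -0.06 and 0.12. The groups overlapped for both genes at every time.

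EGLN3, a hydroxylase that is itself a HIF target, was the only hypoxia gene with a negative change at 72 h. Its signals, in the order of replicates 1, 2 and 3 as everywhere below, were 480, 443 and 253 in vehicle, 317, 357 and 297 at 8 h, 146, 199 and 201 at 24 h, and 134, 329 and 212 at 72 h. All 3 arrays at 24 h lay below all vehicle arrays, and at 72 h the second overlapped them. The log2 change was -1.01 (SE 0.28, adjusted p = 0.0558) at 24 h and -0.79 (SE 0.28, adjusted p = 0.108) at 72 h, neither past the test. At 24 h it passed without vehicle replicate 3 (adjusted p = 0.0175) and without 72 h replicate 1 or 2 (0.0227 and 0.0262), within a range of 0.0175 to 0.229 over the alternatives. At 72 h it passed with vehicle array 3 or 72 h array 2 left out (0.0379 and 0.023, in a range of 0.023 to 0.358).

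By the probe set used for each, all 8 hypoxia targets tested had a positive log2 change at each time. The medians were 0.21, 0.44 and 0.63 at 8, 24 and 72 h. Over all 7178 genes, 3501, 3356 and 3422 were positive at these times. At 72 h 7 of the 8 lay above vehicle without overlap, NDRG1 being the exception, where 11.8% of all genes did. Those past the test were DDIT4, VEGFA and NDRG1 at 24 h and DDIT4 and VEGFA at 72 h.

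DDIT4, also called REDD1, restrains the growth kinase complex mTORC1 in stressed cells, and it had the largest log2 change of the set at 72 h. Its signals were 1009, 865 and 964 in vehicle, 1276, 1150 and 1148 at 8 h, 1827, 1625 and 1748 at 24 h and 2461, 2088 and 1670 at 72 h. Every treated array lay above every vehicle array, and those at 24 h above those at 8 h, while 72 h replicate 3 lay among the 24 h arrays. On the log2 scale the change was 0.33 at 8 h (adjusted p = 0.476), 0.86 at 24 h (SE 0.12, adjusted p = 0.000546) and 1.10 at 72 h (SE 0.12, adjusted p = 3.37e-05), or 2.15-fold. The difference between 24 and 8 h was 0.53 (SE 0.12) and did not pass (adjusted p = 0.0741), or passed with the replicate number as a block (0.53, adjusted p = 0.0258). DDIT4 is read by 1 probe set.

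VEGFA, the growth factor of blood vessels and the classic secreted HIF target, rose at 24 and 72 h. Its signals were 818, 795 and 747 in vehicle, 1006, 936 and 879 at 8 h, 1260, 1060 and 1247 at 24 h, and 1364, 1399 and 1046 at 72 h. The treated arrays lay above vehicle at each time without overlap. VEGFA had a log2 change of 0.25 at 8 h (adjusted p = 0.803), 0.58 at 24 h (SE 0.12, adjusted p = 0.00945) and 0.67 at 72 h (SE 0.12, adjusted p = 0.00227). The other 3 VEGFA probe sets gave 0.11, -0.02 and -0.18 at 8 h. They gave 0.22, 0.17 and 0.40 at 24 h and 0.38, 0.38 and 0.54 at 72 h. The one used, the brightest, thus also gave the largest change, and the sign at 8 h depended on the probe set. The 24 h call was lost with the mean of the 4 probe sets, without vehicle replicate 3 and without 24 h replicate 1 (highest adjusted p = 0.0526).

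NDRG1, a stress-responsive protein linked to differentiation, stood highest at 8 and 24 h. Its signals were 4422, 4661 and 3508 in vehicle, 7376, 6828 and 5544 at 8 h, 7946, 6391 and 5462 at 24 h, and 6227, 6321 and 4285 at 72 h. The arrays at 8 and 24 h lay above vehicle, and 72 h replicate 3 fell back among the vehicle arrays. The log2 change was 0.65 at 8 h (SE 0.17, adjusted p = 0.118), 0.64 at 24 h (SE 0.17, adjusted p = 0.0402) and 0.41 at 72 h (adjusted p = 0.177), and in this fit the 24 h value passed. That call was lost with any of vehicle arrays 1 and 3, 8 h array 2 and 24 h arrays 1 and 2 left out (highest adjusted p = 0.193), without the arrays numbered 2, with no filter on low values and with median centring.

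**Figure D2:**
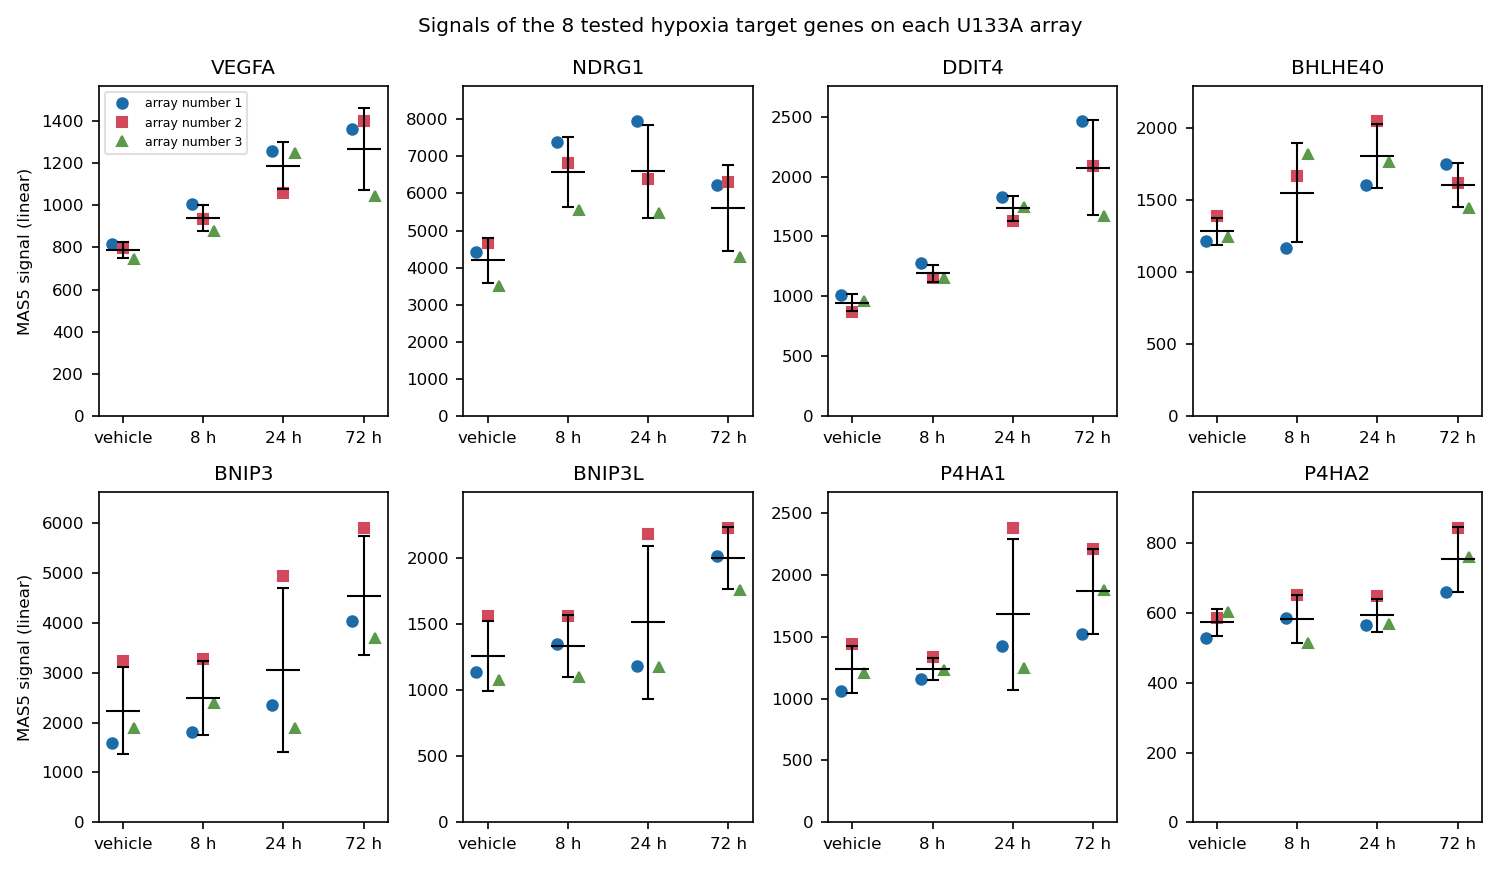
MAS5 signal (linear axis from 0) of the 8 tested hypoxia targets on each array, with group mean (bar) and SD (whiskers) of 3 arrays; symbols mark the replicate number. The treated arrays of DDIT4 and VEGFA lie above vehicle at every time, and the arrays numbered 2 are the highest of each group for BNIP3, BNIP3L and P4HA1.

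BNIP3 and BNIP3L, related receptors that mark mitochondria for removal by autophagy, had large changes at 72 h but wide spreads within groups. BNIP3 gave 1590, 3238 and 1891 in vehicle, 1802, 3278 and 2382 at 8 h, 2345, 4931 and 1883 at 24 h, and 4030, 5900 and 3686 at 72 h. The second array was the highest in each of the 4 groups, and all arrays at 72 h lay above all of vehicle. The log2 change at 72 h was 1.05 (SE 0.32, adjusted p = 0.0664), or 0.88 by its other probe set, and did not pass. Against the vehicle array of the same number the 72 h arrays differed by 1.33, 0.86 and 0.96. With the replicate number as a block, a pairing that no label states, the limma adjusted p was 0.000354.

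For BNIP3L the signals were 1138, 1563 and 1081 in vehicle, 1348, 1563 and 1098 at 8 h, 1184, 2186 and 1181 at 24 h, and 2015, 2232 and 1763 at 72 h. Here too the second array led every group, by the largest margin at 24 h, and 72 h lay above vehicle. The log2 change at 72 h was 0.67 (SE 0.21, adjusted p = 0.0708) and did not pass, and the other probe set gave 0.29. Same-number differences from vehicle at 72 h were 0.82, 0.51 and 0.70, and the limma adjusted p with that block was 0.00276.

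P4HA1 and P4HA2, catalytic subunits of the collagen prolyl hydroxylases, stood above vehicle at 72 h without overlap. P4HA1 gave 1058, 1441 and 1204 in vehicle, 1157, 1331 and 1228 at 8 h, 1423, 2377 and 1243 at 24 h, and 1518, 2203 and 1878 at 72 h. Its log2 change at 72 h was 0.59 (SE 0.20, adjusted p = 0.0953). P4HA2 gave 528, 586 and 603 in vehicle and 658, 843 and 758 at 72 h, a log2 change of 0.38 (SE 0.12, adjusted p = 0.0844). BHLHE40, a transcriptional repressor that also serves the circadian clock, gave 0.25, 0.48 and 0.32 at 8, 24 and 72 h (adjusted p = 0.0853 at 24 h). None of these 3 passed the test at any time.

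The number of hypoxia genes that rose at 72 h, 2 with all 12 arrays in the fit, moved with the arrays and the fit. It was 4 without vehicle replicate 2 and 5 without 24 h replicate 2. It was 3 without 24 h replicate 3 (BNIP3 added), 72 h replicate 1 (P4HA2) or 72 h replicate 3 (NDRG1), and 5 with vehicle and 72 h alone in the fit. It was also 5 when the 4 arrays numbered 2 were left out together, an alternative chosen after the data were seen. Then BNIP3 had a log2 change of 1.14 (adjusted p = 0.00195), BNIP3L 0.76 (0.00858) and P4HA1 0.57 (0.0459). Over the alternatives the adjusted p at 72 h ranged from 0.000354 to 0.244 for BNIP3, from 0.00276 to 0.223 for BNIP3L and from 0.0124 to 0.294 for P4HA1. Over all 7178 genes, 495 passed at 72 h in either direction with all arrays. That number was 330 to 549 with 1 array left out and 352 without the arrays numbered 2. Whether the counts of hypoxia genes followed it was not tested.

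The array numbered 2 was the highest of its group in all 4 groups for 3 of 11 hypoxia genes (BNIP3, BNIP3L and P4HA1) and 6 of 21 glycolysis genes (ALDOC, ENO1, ENO2, LDHA, PFKP and PGK1), against 215 of 7178 genes tested, or 3.00%. The array numbered 1 was so for 200 genes, DDIT4 among them, and that numbered 3 for 205, none of them in the set. At 24 h the median deviation of the 11 hypoxia genes from their vehicle means was 0.62 on the second array and 0.13 and 0.02 on the others. The labels do not say whether the second cultures shared anything.

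**Figure D3:**
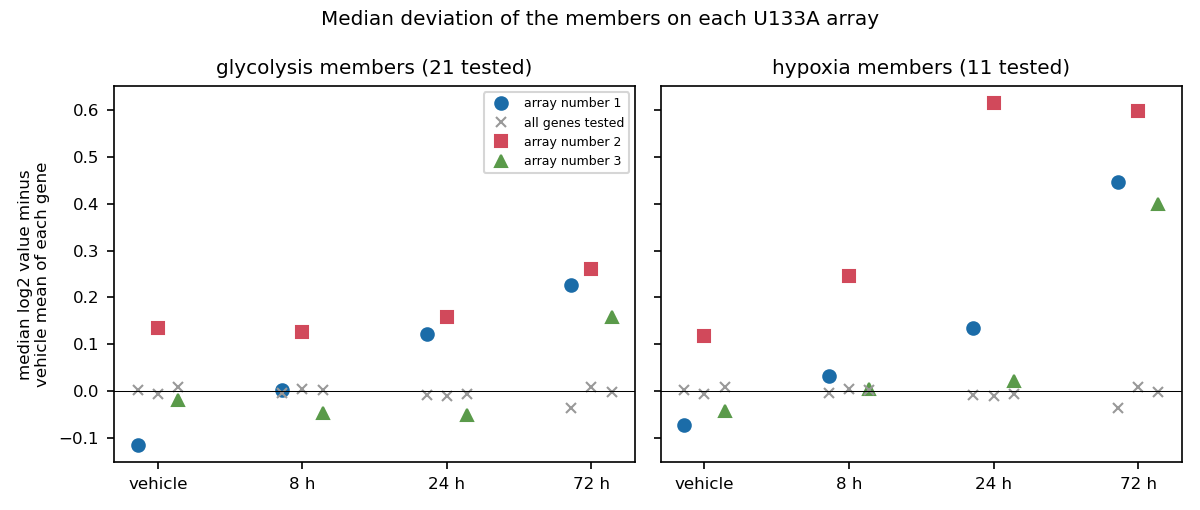
Median, over the 21 glycolysis genes (left) and the 11 hypoxia genes (right), of the log2 value minus the gene's vehicle mean, on each U133A array; crosses give the same over all genes tested. The hypoxia genes reach 0.62 on the second 24 h array and at least 0.40 on each 72 h array, while the crosses stay near 0.

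In glycolysis the largest change sat at the phosphofructokinase step. Of 10 upper enzymes tested, FBP1 included, 1 rose (PFKP) and 1 fell (PFKFB3) at 72 h, where 3.9% of all genes rose and 3% fell, with a median log2 change of 0.14. Of the 7 lower enzymes from TPI1 to PKM, 1 rose (TPI1) and 0 fell, with a median of 0.26. All 7 were positive, as were 3422 of all 7178 genes, though ENO1 ranged from -0.02 to 0.23 over the alternatives. Of LDHA, LDHB and PDK1, which act on pyruvate or its entry into mitochondria, 0 rose and 0 fell, with a median of 0.10. These and the lower enzymes had been listed as 1 group of 10, with a median of 0.24 and 9 positive. The transporter SLC2A1, also called GLUT1, brings glucose into the cell and gave -0.12, -0.05 and 0.24 at 8, 24 and 72 h, not past the test (adjusted p = 0.395 at 72 h).

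PFKP is the platelet-type isoform of phosphofructokinase, the enzyme of the committed step. Its signals were 1440, 1711 and 1539 in vehicle, 1991, 2447 and 2012 at 8 h, 2220, 2619 and 2614 at 24 h and 3263, 3376 and 2876 at 72 h. Every treated array lay above every vehicle array, and all 3 at 72 h above all at 24 h. PFKP had a log2 change of 0.45 at 8 h (SE 0.11, adjusted p = 0.0858), 0.66 at 24 h (SE 0.11, adjusted p = 0.00178) and 1.01 at 72 h (SE 0.11, adjusted p = 2.21e-05), or 2.02-fold. The liver and muscle isoforms did not pass: PFKL had 0.26 at 72 h (adjusted p = 0.246) and PFKM -0.10 (adjusted p = 0.586).

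PFKFB3 makes fructose 2,6-bisphosphate, the activator of phosphofructokinase, and is often listed as a HIF target. Its signals were 654, 503 and 621 in vehicle, 325, 432 and 499 at 8 h, 464, 469 and 402 at 24 h, and 429, 410 and 323 at 72 h. All 9 treated arrays lay below the 3 vehicle arrays. The log2 change was -0.50 at 8 h (adjusted p = 0.34), -0.39 at 24 h (adjusted p = 0.261) and -0.59 at 72 h (SE 0.16, adjusted p = 0.0385), 1.51-fold lower. The 72 h call was lost with any of vehicle arrays 1 and 3, 8 h array 2, 24 h array 1 and 72 h arrays 2 and 3 left out, without the arrays numbered 2, with no filter and with median centring (highest adjusted p = 0.156).

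The other upper enzymes did not pass at any time. The hexokinases HK1 and HK2, which trap glucose by phosphorylation, gave 0.05 and -0.02 at 72 h, and GPI, which isomerises the product, 0.23. Aldolase splits the sugar, and its isoforms ALDOA and ALDOC gave 0.32 (adjusted p = 0.0824) and 0.51 (adjusted p = 0.119). FBP1, which runs the phosphofructokinase step backwards in gluconeogenesis, gave -0.08.

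TPI1, which interconverts the triose phosphates, rose at 72 h. Its signals were 9597, 11276 and 10012 in vehicle, 10109, 11070 and 9666 at 8 h, 11180, 10768 and 10206 at 24 h, and 14049, 13023 and 12047 at 72 h. The arrays at 72 h lay above all the others, which overlapped. The log2 change was -0.00, 0.06 and 0.34 (SE 0.09, adjusted p = 0.0227 at 72 h), or 1.27-fold, and the other TPI1 probe set above the filter gave 0.26. The probe sets used for TPI1, ALDOA, GAPDH, LDHB, PFKL and EGLN1 are of a design whose probes may match other transcripts. The call was lost with any of vehicle arrays 1 and 3 and 72 h arrays 1 and 2 left out (highest adjusted p = 0.0978), with no filter, with median centring and with vehicle and 72 h alone in the fit.

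The other 6 enzymes from GAPDH to PKM had positive changes at 72 h, from 0.13 (ENO1) to 0.63 (ENO2), that did not pass. GAPDH, often used as a reference gene, gave 22911, 27747 and 24610 in vehicle and 29297, 29923 and 27912 at 72 h, a log2 change of 0.21 (SE 0.08, adjusted p = 0.124). Its other probe sets gave 0.25 and 0.23, and the 3 GAPDH control probe sets of the array 0.30, 0.21 and 0.27. PGK1, which makes the first ATP of the pathway, gave 0.33 (adjusted p = 0.157), and 1 of its 4 probe sets had the opposite sign. PGAM1 gave 0.21 and ENO1 0.13, while ENO2, the enolase isoform typical of neurons, gave 0.63 (adjusted p = 0.0983) from signals of 176, 230 and 175 in vehicle to 285, 355 and 284. PKM, pyruvate kinase, gave 0.26 (adjusted p = 0.0691), with the 72 h arrays all above vehicle, and its other probe set above the filter gave -0.02.

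At the branch after pyruvate no change passed the test with all arrays in the fit. LDHA, which makes lactate, gave 16458, 21833 and 19377 in vehicle and 19014, 22182 and 20217 at 72 h, a log2 change of 0.10 with a 95% interval of -0.14 to 0.33. LDHB, the isoform that favours the reverse reaction, gave -0.01. PDK1, which keeps pyruvate out of mitochondria and is a HIF target, was near the filter and gave 0.24, -0.69 and 0.35, with signals of 43.2, 292 and 68.3 at 24 h. Without 24 h replicate 2 its change at 24 h was -1.39 and passed (adjusted p = 0.0252, in a range of 0.0252 to 0.936), as did that from 8 to 24 h (-1.63, adjusted p = 0.04).

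The number of glycolysis genes that rose at 72 h, 2 with all arrays, was 7 without vehicle replicate 2. It was 1 with any of vehicle arrays 1 and 3 and 72 h arrays 1 and 2 left out. It was 4 without the arrays numbered 2. ALDOA also passed without 72 h replicate 3 (limma adjusted p = 0.0326), and PKM without 24 h replicate 2 (0.0412). The number that fell was 1 with all arrays. It was 0 where PFKFB3 was lost. Calls at 72 h over all genes moved too, from 330 to 549 with 1 array left out, against 495 with all arrays.

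**Figure D4:**
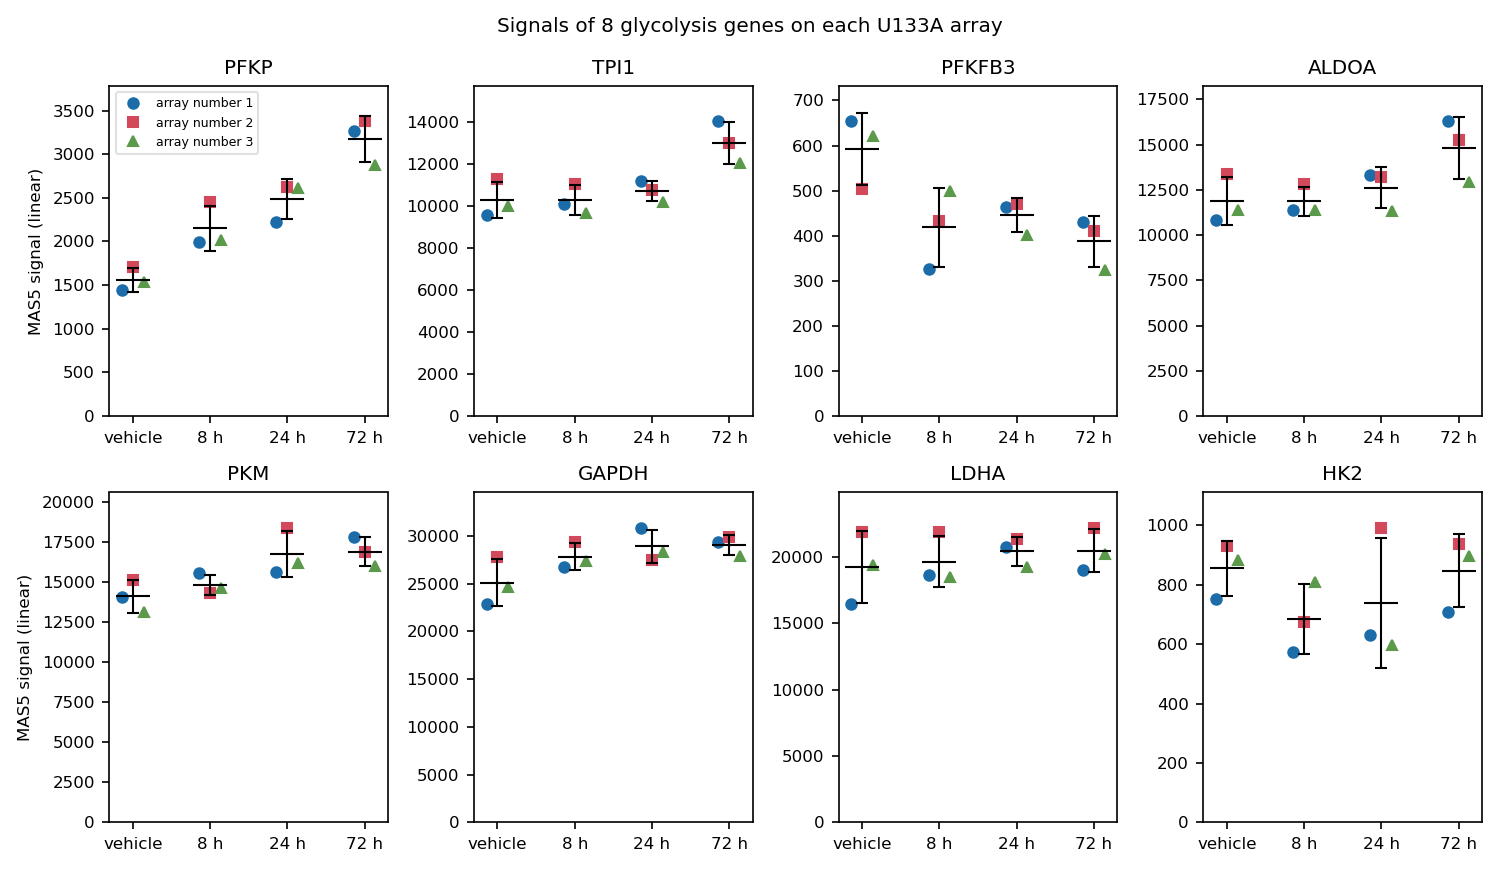
MAS5 signal (linear axis from 0) of 8 glycolysis genes on each array, with group mean (bar) and SD (whiskers) of 3 arrays; symbols mark the replicate number. PFKP climbs from 1440 to 1711 in vehicle to 2876 to 3376 at 72 h, PFKFB3 lies lower in every treated group, and LDHA overlaps throughout.

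Between the treated times, 0 of 32 genes differed from 8 to 24 h (0.599% of all genes did, in either direction) and 0 from 24 to 72 h (0.167%) by limma. From 8 to 72 h, 3 genes were higher, PFKP by 0.56 (SE 0.11, adjusted p = 0.0104), TPI1 by 0.34 (SE 0.09, adjusted p = 0.0462) and DDIT4 by 0.77 (SE 0.12, adjusted p = 0.00253), against 1.45% of all genes, and 0 were lower (1.21%). Unadjusted limma p values were under 0.01 for DDIT4 from 8 to 24 h and for PFKP, ALDOC and TPI1 from 24 to 72 h. The share of all genes at that level is not given here either.

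The U95 arrays, with 1 sample a time and no test, measured 28 of the 32 genes above their filter. At 72 h the ratio to the U95 vehicle array had the same sign as the U133A change for 16 of 19 glycolysis and 8 of 9 hypoxia genes, 85.7% in all, where 64.8% of 4158 genes agreed in sign. At 8 and 24 h it was 19 of 28 each time (67.9%), where 57.6% and 60.3% of all genes did. Of the 9 hypoxia genes at 8 h, 5 had the same sign and 4 a positive ratio, with a median log2 ratio of -0.00. The median log2 ratio at 72 h was 0.36 for the glycolysis genes, 0.39 for the hypoxia genes and -0.04 for all genes.

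DDIT4 gave U95 signals of 549, 819, 1222 and 1542 at 0, 8, 24 and 72 h, a log2 ratio of 1.47 at 72 h. PFKP gave 1125, 1274, 1985 and 2470, a ratio of 1.13. BNIP3 gave 1565, 1344, 2162 and 3608, a ratio of 1.20. All 3 were highest at 72 h on this array type too. P4HA1 had a ratio of 0.89 and BNIP3L 0.57 at 72 h, while VEGFA (0.18), NDRG1 (0.14) and TPI1 (0.03) had small ratios, and PFKFB3 was lower (-0.44). The sign at 72 h differed from U133A for BHLHE40 (-0.04 against 0.32) and SLC2A1 (-0.43 against 0.24). It also differed for LDHB (0.36 against -0.01) and FBP1 (0.08 against -0.08). For BHLHE40 it differed at 8 and 24 h too.

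The U95 ratios of 2 lower enzymes were far larger than on U133A. PKM had signals of 146, 3276, 1331 and 2627, and PGAM1 618, 1849, 1900 and 1963, so that the vehicle array stood apart for both. The only GAPDH probe set of this array type above the filter gave 230, 447, 79.1 and 234, which did not set the vehicle array apart. The GAPDH controls of this array type differed among themselves, with 718, 1392, 1613 and 2027 for the 3' one, 435, 1364, 906 and 178 for the middle one and 4398, 5424, 2968 and 6368 for the 5' one. The part of the vehicle array in these ratios was not tested.

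**Figure D5:**
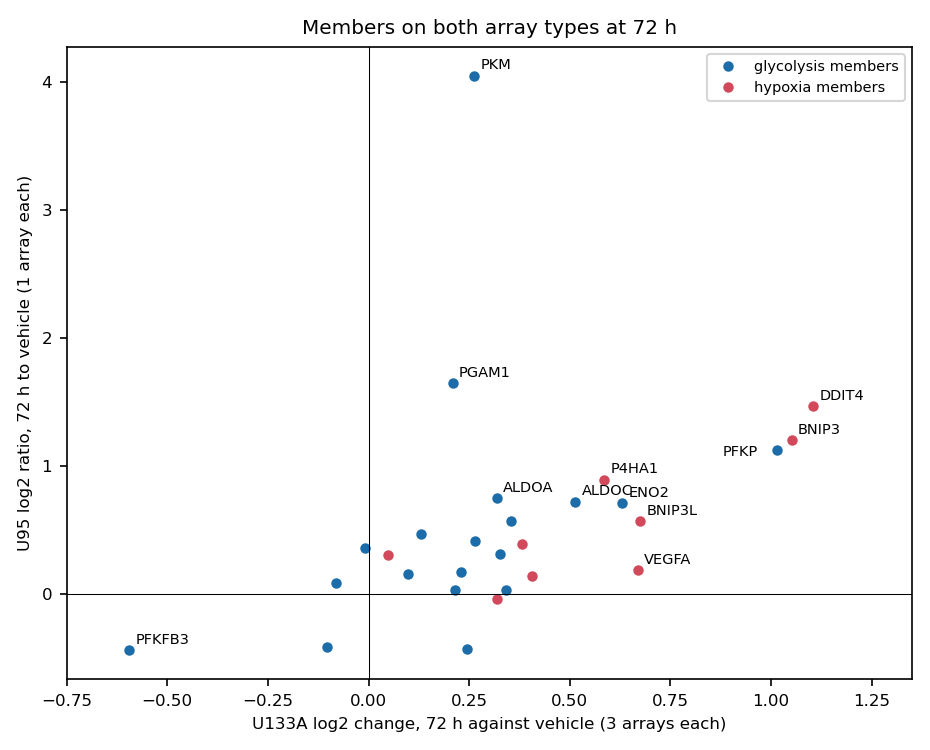
Log2 change at 72 h on U133A (horizontal, 3 arrays a group) against the log2 ratio at 72 h on U95 (vertical, 1 array each) for the 28 genes on both types. DDIT4, BNIP3 and PFKP lie highest on both axes apart from PKM (4.05) and PGAM1 (1.65), whose U95 vehicle signals were low.

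Other genes of these pathways were read from textbook lists. Of 25 further hypoxia genes tested, 0 rose at 8 h, 2 at 24 h and 3 at 72 h, and 0 fell at any time, with median log2 changes of 0.01, 0.01 and 0.15. Of all genes, 0.752%, 2.54% and 3.9% rose at these times. ADM, the vessel-dilating peptide adrenomedullin and a HIF target, rose by 0.91 at 24 h (SE 0.17, adjusted p = 0.00415) and 0.98 at 72 h (adjusted p = 0.00153), from 495, 502 and 402 in vehicle to 845, 926 and 1040 at 72 h. CITED2, a HIF-induced protein that competes with HIF1A for its coactivator, rose by 0.76 at 24 h (adjusted p = 0.00975) and 1.08 at 72 h (SE 0.16, adjusted p = 0.000407). MIF, a cytokine, rose by 0.41 at 72 h (adjusted p = 0.00278).

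Of 15 further genes of glucose and glycogen handling tested, PGM1 alone passed against vehicle. It rose at 24 and 72 h, where 2.54% and 3.9% of all genes rose. PGM1 interconverts glucose 1-phosphate and glucose 6-phosphate, the link between glycogen and glycolysis. Its signals were 1937, 2423 and 2096 in vehicle, 2460, 2790 and 2482 at 8 h, 3492, 3820 and 3756 at 24 h and 5043, 5132 and 4952 at 72 h. Each treated group lay above vehicle, and each later time above the earlier one. PGM1 had a log2 change of 0.78 at 24 h (SE 0.09, adjusted p = 8.36e-05) and 1.23 at 72 h (SE 0.09, adjusted p = 4.47e-07), or 2.34-fold.

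In the pentose phosphate pathway, which branches off at glucose 6-phosphate, 1 of 8 genes tested rose at 72 h (PGLS, 6-phosphogluconolactonase, 0.39, adjusted p = 0.046) and 0 fell, where 3.9% of all genes rose. Among 28 genes of pyruvate entry and the citric acid cycle, 1 rose at 24 and at 72 h (SDHA, a subunit of succinate dehydrogenase, 0.53 and 0.54, adjusted p = 0.0496 and 0.0304) and 0 fell, a share near that of all genes (2.54% and 3.9%). The median change at 72 h was -0.00 in the first list and -0.01 in the second.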

How the data were processed

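Each deposited value is the linear intensity of a probe set, made with MAS5 by the authors per the submitters' processing notes (version not given in the sources used here). The 12 U133A arrays shared a 2% trimmed mean of 500.2, so no further scaling was done. The U95 arrays were not rescaled either, and their trimmed means are not given here. The analysis used log2(value + 15.833), with the added number set to the 10th percentile over the U133A arrays (13.87 on U95). Probe sets of exactly 1 gene were kept (19071 of 22283), named through the platform annotation and RefSeq on GRCh38.p14, and the probe set with the highest mean signal stood for its gene. Of 11963 genes, the 7178 with a mean at or above the 40th percentile were tested.

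In R 4.3.3, limma 3.58.1 (eBayes with trend) fitted 1 term per group to all 12 U133A arrays, with 8 residual degrees of freedom, Benjamini-Hochberg adjustment and a threshold of 0.05. The scripts were tested on simulated data. Precision is limited by how few arrays there are. The genes and lists were chosen with earlier results of these data known. Every gene of the set may be named, as may genes of the related lists past the test against vehicle, and CYP24A1 and GADD45A as checks of the treatment.

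Alternatives were the pseudocount, the filter, the probe set rule, quantile or median scaling, a fit of only the groups compared, a replicate block and leaving out each array. No label says that a replicate number marks a shared experiment. Deviations of same-number arrays correlated at 0.04 to 0.26, over 0.1 in all 3 pairs for 8 against 24 h only, so the block is given beside that comparison and otherwise as an alternative. The promoter windows are from RefSeq, and 32 of the 36 genes had at least 1.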

Additional observations from a re-analysis of the deposited data

Results flagged for a closer look

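PFKP, TPI1 and DDIT4 differed between treated times, by a test of the difference itself. The log2 change at 72 h exceeded that at 8 h by 0.56 for PFKP (SE 0.11, limma adjusted p = 0.0104), by 0.34 for TPI1 (SE 0.09, adjusted p = 0.0462) and by 0.77 for DDIT4 (SE 0.12, adjusted p = 0.00253). All 3 arrays at 72 h lay above all 3 at 8 h for each gene. The PFKP difference no longer passed without 8 h replicate 1 or 3 (highest adjusted p = 0.0603). That of DDIT4 was lost when the 4 arrays numbered 2 were left out together (adjusted p = 0.0578, in a range of 0.000461 to 0.0578), and that of TPI1 in 12 of the alternatives (highest adjusted p = 0.201).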

How the results depend on the processing

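The calls of PFKP and DDIT4 at 24 and 72 h and of VEGFA at 72 h held under every alternative run, and no result changed sign while called. For single genes, 3995 alternative values kept their side of the threshold, 67 gained it and 42 lost it. With no filter on low values or with median centring, 1 glycolysis gene rose and 0 fell at 72 h. With vehicle and the time compared alone in the fit, 1 hypoxia gene rose at 8 h, 1 fell at 24 h and 5 rose at 72 h, and 1 glycolysis gene rose at 72 h. With the pseudocount 4 times as high, 1 hypoxia gene (EGLN3) fell at 24 h. The F test called 2 glycolysis genes with quantile normalization and 2 with a filter at the 60th percentile. Without the 4 arrays numbered 2 (chosen after seeing the data), 4 glycolysis genes and 5 hypoxia genes rose and 0 glycolysis genes fell at 72 h, and 32, 188 and 352 of all genes passed at 8, 24 and 72 h.

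With a replicate block, 1 glycolysis gene (PFKP) and 1 hypoxia gene (NDRG1, adjusted p = 0.00091, and 0.00776 at 72 h) rose at 8 h, 1 hypoxia gene (EGLN3) fell at 24 h, and 6 glycolysis and 7 hypoxia genes rose at 72 h, where 5.17% of all genes rose. The F test then called 4 and 6, and 1 and 9 genes differed from 8 to 24 h and from 8 to 72 h. Of 36 best-match checks between groups, in which each of the 12 arrays entered more than once, 34 picked the array's own number. That is a hint from the data and not the design. Each 72 h array lay above the vehicle array of its own number for 12 of 21 glycolysis and 9 of 11 hypoxia genes, and for 19.9% of all genes.

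Leaving out 1 array at a time gave 1 to 2 glycolysis genes higher and 0 to 1 lower at 24 h, and 1 to 7 and 0 to 1 at 72 h. Hypoxia genes were 1 to 4 higher and 0 to 1 lower at 24 h, and 2 to 5 and 0 to 1 at 72 h, and 0 of either set rose at 8 h. The F test called 1 to 2 glycolysis and 2 to 5 hypoxia genes, 0 to 1 genes differed from 8 to 24 h, 0 from 24 to 72 h and 1 to 5 from 8 to 72 h, and 40 to 61, 195 to 327 and 330 to 549 of all genes passed at the 3 times. The cause of these shifts was not tested.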
